A study of Sus scrofa with 24 samples.

Results

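The transcripts of 8 apolipoprotein genes, APOA1, APOA2, APOA4, APOB, APOC3, APOE, APOH and APOM, were followed in liver samples from 24 pigs of 115 kg body weight. Residual feed intake (RFI) is the feed an animal eats beyond what its growth and maintenance predict. The 3 groups of 8 pigs were measured, with 1 array per pig. Restricted high RFI pigs (RFIplR) came from the line selected for high RFI and were fed at the level of low RFI pigs. High RFI pigs (RFIpl) came from that same high RFI line and were fed ad libitum. Low RFI pigs (RFIneg) came from the line selected for low RFI and were also fed ad libitum. Members were found by the gene symbol or protein name that the scanner output gives for each probe. Of 43603 probes, 18 named a member: 2 for APOA1, 1 for APOA2, 2 for APOA4, 6 for APOB, 3 for APOC3, 2 for APOE and 2 for APOM. These cover 7 of the 8 genes, and APOH was not analysed here.

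Apolipoproteins are the protein part of lipoproteins, the particles that carry triglyceride, cholesterol and phospholipid through the blood. The liver releases triglyceride on very low density lipoprotein (VLDL) built around apoB, and it makes most of the apoA-I and apoA-II of high density lipoprotein (HDL). ApoC-III slows the lipolysis and clearance of triglyceride-rich particles, while apoE binds the receptors that clear them. ApoA-IV is a major product of the small intestine during fat absorption, and the liver makes it too.

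In 24 livers, the transcripts of 6 of the 7 genes did not differ detectably between the groups. Few probes of any kind did, at most 0.222% of all probes tested in a pairwise comparison. The brightest probes of these 6 genes varied little between pigs, with a spread at percentiles 6.9 to 37.5 of all probes tested. Dimmer probes of these genes reached percentile 63.0. APOA4 stood apart: its level spanned a 39.8-fold range among restricted high RFI pigs, a 2.88-fold range among high RFI pigs and a 45.6-fold range among low RFI pigs. Neither APOA4 nor any other member passed the test for a difference between group means.

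The probes that carry these results are shown because the readings for APOA4 and APOA1 rest on pairs of probes, and those for APOB on several probes. Sequences run 5′ to 3′ as the scanner output gives them, and each probe is 60 bases long. Capitals in the APOA1 pair mark the 25 bases that both probes share. The capitals in the first APOB probe mark the stop triplet at its end. Of APOA4 probe A_72_P146996 and APOB probe A_72_P244787 the last 30 bases are given, and capitals in that APOA4 probe mark AATAAA, the polyadenylation signal.
APOA4 A_72_P441539: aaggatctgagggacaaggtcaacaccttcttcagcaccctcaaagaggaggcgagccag
APOA4 A_72_P146996: ctccatactcAATAAAgctgctgagaaact
APOA1 A_72_P754826: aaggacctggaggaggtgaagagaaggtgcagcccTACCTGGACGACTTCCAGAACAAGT
APOA1 A_72_P035886: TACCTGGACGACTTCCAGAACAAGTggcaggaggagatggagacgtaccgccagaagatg
APOB A_72_P443119: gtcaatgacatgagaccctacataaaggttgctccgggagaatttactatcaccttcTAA
APOB A_72_P244787: cactactattttattacatttgggcaactc
The 2 APOA4 probes share no run longer than 5 bases. The letters AATAAA, searched on the strand as printed, were found in 3 of the 18 member probes (of APOA2, APOA4 and APOM) and in 9.60% of all 43603 probes. In the RefSeq annotation of Sscrofa11.1, APOA5, APOA4, APOC3 and APOA1 are consecutive coding genes, and APOE is followed by APOC4 and APOC2.

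Levels are log2 of the array's processed signal minus the 75th percentile of the same array, so a level of 0 is a spot at that percentile. Different probes bind with different strength, so no level is set against that of another probe. Across arrays 63.2% to 72.7% of spots were well above background, with means of 67.4% ± 2.81 in restricted high, 70.2% ± 2.28 in high and 67.8% ± 2.77 in low RFI pigs (SD, n = 8 each), and no spot was saturated. With 8 arrays in each group, the precision for a probe follows its spread between pigs. The 24 arrays lay on 6 slides of 4 and were scanned on 2 days, with all groups present on each slide and each day. The days were not balanced: scan day 1 held 5 restricted high, 4 high and 3 low RFI pigs, and scan day 2 held 3, 4 and 5. Liver identity was checked on hepatocyte markers. HP (haptoglobin) averaged 9.62 ± 0.14 in restricted high, 9.58 ± 0.14 in high and 9.59 ± 0.06 in low RFI pigs, and ALB (albumin) 9.43 ± 0.09 in restricted high, 9.41 ± 0.10 in high and 9.42 ± 0.08 in low RFI pigs. SERPINC1 (antithrombin) averaged 8.86 ± 0.07 in restricted high, 8.85 ± 0.11 in high and 8.89 ± 0.10 in low RFI pigs. These were well above background throughout. In whole liver, fewer cells of a type and less RNA per cell cannot be told apart.

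APOA1 encodes the main structural protein of HDL and activates the enzyme that esterifies cholesterol there. Its brighter probe, A_72_P035886, read 7.60 at the lowest, 7.97 at the median and 8.24 at the highest in restricted high RFI pigs. High RFI pigs ran between 7.73 and 8.40 with a median of 7.99, and low RFI pigs between 7.93 and 8.26 with a median of 8.03. The 3 groups overlapped, and the order of their means, 7.93 ± 0.20 in restricted high, 8.01 ± 0.19 in high and 8.06 ± 0.10 in low RFI pigs (SD, n = 8 each), spanned less than the spread within 2 of the groups. The other APOA1 probe, A_72_P754826, kept the same order at 7.52 ± 0.20 in restricted high, 7.58 ± 0.13 in high and 7.59 ± 0.07 in low RFI pigs. APOA2, which encodes the second structural protein of HDL, ran between 7.31 and 8.16 in restricted high, between 7.80 and 8.17 in high and between 7.56 and 8.31 in low RFI pigs. Restricted high pig 8, at 7.31, was the lowest of all 24, and the next in its group stood at 7.84. The APOA2 means were 7.96 ± 0.28 in restricted high, 8.01 ± 0.12 in high and 8.06 ± 0.26 in low RFI pigs.

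APOM encodes the HDL protein that carries sphingosine-1-phosphate. Its probe A_72_P303029 averaged 6.33 ± 0.22 in restricted high, 6.27 ± 0.15 in high and 6.28 ± 0.15 in low RFI pigs, with the widest range, 6.05 to 6.73, in restricted high RFI pigs. The dimmer APOM probe A_72_P499018 averaged 3.34 ± 0.18 in restricted high, 3.23 ± 0.20 in high and 3.38 ± 0.19 in low RFI pigs. Neighbouring means of these 3 HDL genes lay within their SDs.

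APOB encodes the large scaffold protein of VLDL and low density lipoprotein. Its brightest probe, A_72_P443119, read 7.19 to 7.83 in restricted high, 7.13 to 7.67 in high and 7.14 to 7.67 in low RFI pigs. The means of 7.53 ± 0.21 in restricted high, 7.43 ± 0.22 in high and 7.44 ± 0.19 in low RFI pigs lay within each other's spread. The 3 dimmer APOB probes had their lowest mean in low RFI pigs. Among them A_72_P244787 averaged 4.93 ± 0.27 in restricted high, 4.84 ± 0.35 in high and 4.62 ± 0.21 in low RFI pigs. A_72_P236797 averaged 4.13 ± 0.19 in restricted high, 4.10 ± 0.23 in high and 3.96 ± 0.22 in low RFI pigs. A_72_P300614 averaged 4.38 ± 0.14 in restricted high, 4.39 ± 0.20 in high and 4.30 ± 0.17 in low RFI pigs. Over the 24 pigs, with group means removed, the dimmer probes correlated with each other at r between 0.65 and 0.91 but with the brightest at only 0.21 to 0.37. The last 2 APOB probes were near background.

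APOC3 encodes the inhibitor of lipolysis named above. Its probe A_72_P177696 averaged 9.14 ± 0.12 in restricted high, 9.23 ± 0.18 in high and 9.22 ± 0.12 in low RFI pigs. Its range was 8.97 to 9.28 in restricted high, 8.99 to 9.44 in high and 9.12 to 9.47 in low RFI pigs. The second APOC3 probe, A_72_P685483, averaged 8.31 ± 0.22 in restricted high, 8.36 ± 0.12 in high and 8.25 ± 0.11 in low RFI pigs. The dimmest, A_72_P647163, averaged 2.93 ± 0.32 in restricted high, 2.85 ± 0.30 in high and 3.04 ± 0.36 in low RFI pigs. The order of the groups differed between the 3 probes. The brightest correlated with the second at r = 0.54 and with the dimmest at 0.06 over the 24 pigs. APOE encodes the receptor ligand of remnant particles. Its probe A_72_P223767 averaged 7.20 ± 0.12 in restricted high, 7.23 ± 0.13 in high and 7.22 ± 0.20 in low RFI pigs, and low RFI pig 6 was the lowest of all at 6.79. The second APOE probe, A_72_P113866, was near background.

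**Figure D1:**
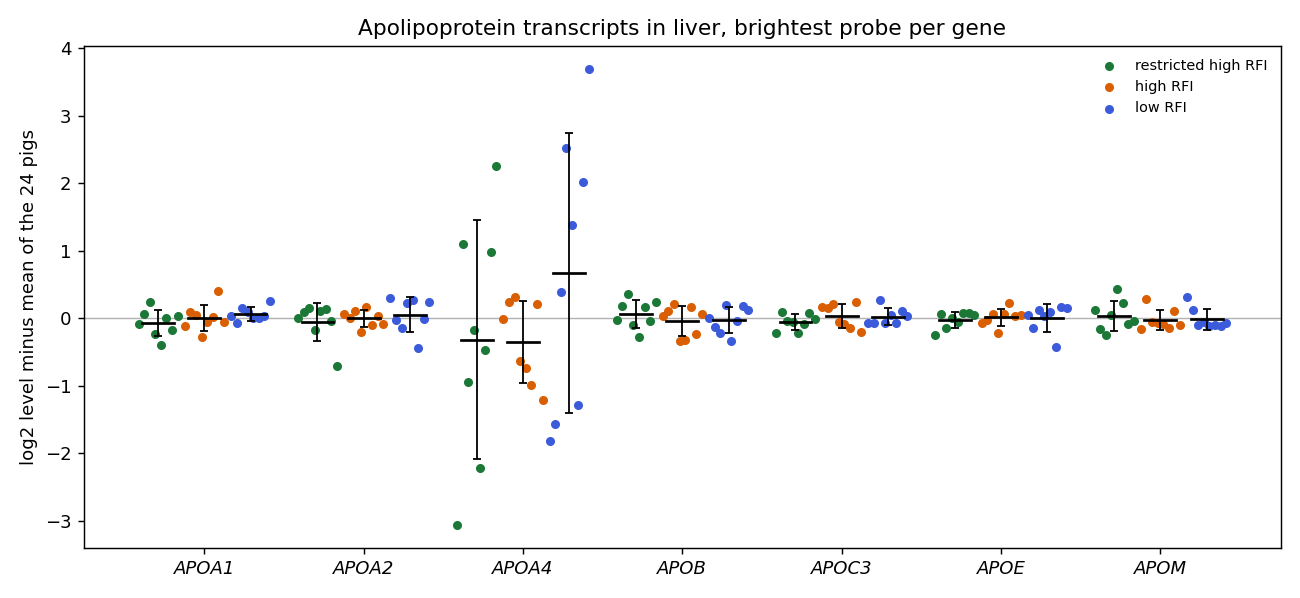
Level of the brightest probe of each gene, as log2 minus the mean of the 24 pigs, for restricted high, high and low RFI pigs. Points are pigs, bars the group mean with 1 SD (n = 8 each). Only APOA4 extends more than 1 log2 unit from its mean, in both directions among restricted high and low RFI pigs.

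Probes were tested where 6 or more of the 8 arrays in any group read them well above background. Of the 18 member probes 15 met this filter, and 29665 probes met it in all. The 3 left out were APOB probes A_72_P076311 and A_72_P192632, the first described as chicken apoB, and APOE probe A_72_P113866. In high minus low RFI pigs, which sets the lines side by side at free intake, 0 of 15 member probes passed an adjusted p of 0.05 in limma with Benjamini-Hochberg adjustment over all probes tested, where 0.162% of all probes passed. In restricted high minus high RFI pigs, the same line at different feeding levels, 0 of 15 passed, where 0% of all probes did. In restricted high minus low RFI pigs, different lines at the same feeding level, 0 of 15 passed against 0.222% of all probes. In the moderated F test over the 3 groups, 0 of 15 passed against 0.212% of all probes.

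At an unadjusted p of 0.05, limma gave 0, 0 and 1 member probes in the 3 pairwise comparisons, in that order, while 9.52%, 5.33% and 12.7% of all probes lay below it. The F test gave 0. The single probe was APOB A_72_P244787, 0.31 ± 0.14 (SE) higher in restricted high than in low RFI pigs, with a limma adjusted p of 0.340. No member probe had groups that did not overlap; of all probes tested, 0.138%, 0.027% and 0.131% had such groups in the 3 comparisons.

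The median difference of the 7 genes, each by its brightest probe, was -0.01 in high minus low RFI, -0.04 in restricted high minus high RFI and -0.08 in restricted high minus low RFI pigs. The median of all probes tested was 0.003, -0.01 and -0.005. Of the 7 genes, 2 had positive and 5 negative differences in high minus low RFI pigs, 3 and 4 in restricted high minus high RFI pigs, and 2 and 5 in restricted high minus low RFI pigs. Of all probes tested, 50.9%, 46.9% and 48.7% had positive differences in those comparisons. The split of signs rests on the probe chosen and on small values. In high minus low RFI pigs APOB was -0.01 on its brightest probe but 0.23, 0.10 and 0.14 on its dimmer tested probes. APOC3, APOE and APOM, at 0.01, 0.008 and -0.01 there, had SEs of 0.08, 0.08 and 0.09. Without APOA4, the differences of the 6 genes in the 3 comparisons lay between -0.05 and 0.01, between -0.09 and 0.10 and between -0.13 and 0.09.

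For the 6 genes other than APOA4, no 95% interval of the brightest probe reached beyond -0.30 or 0.21 in high minus low RFI pigs, beyond -0.29 or 0.32 in restricted high minus high RFI pigs, or beyond -0.35 or 0.31 in restricted high minus low RFI pigs. On the linear scale these bounds are 1.23-fold, 1.25-fold and 1.27-fold. The lower bounds belonged to APOA2 and the upper ones to APOB. They hold for the brightest probes alone, and intervals of dimmer probes reached further. That of APOB A_72_P244787 ended at 0.51 in high minus low RFI and at 0.60 in restricted high minus low RFI pigs, and that of APOC3 A_72_P647163 began at -0.52 in high minus low RFI pigs. On each scan day alone, the differences of the 6 genes lay between -0.32 and 0.18.

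**Figure D2:**
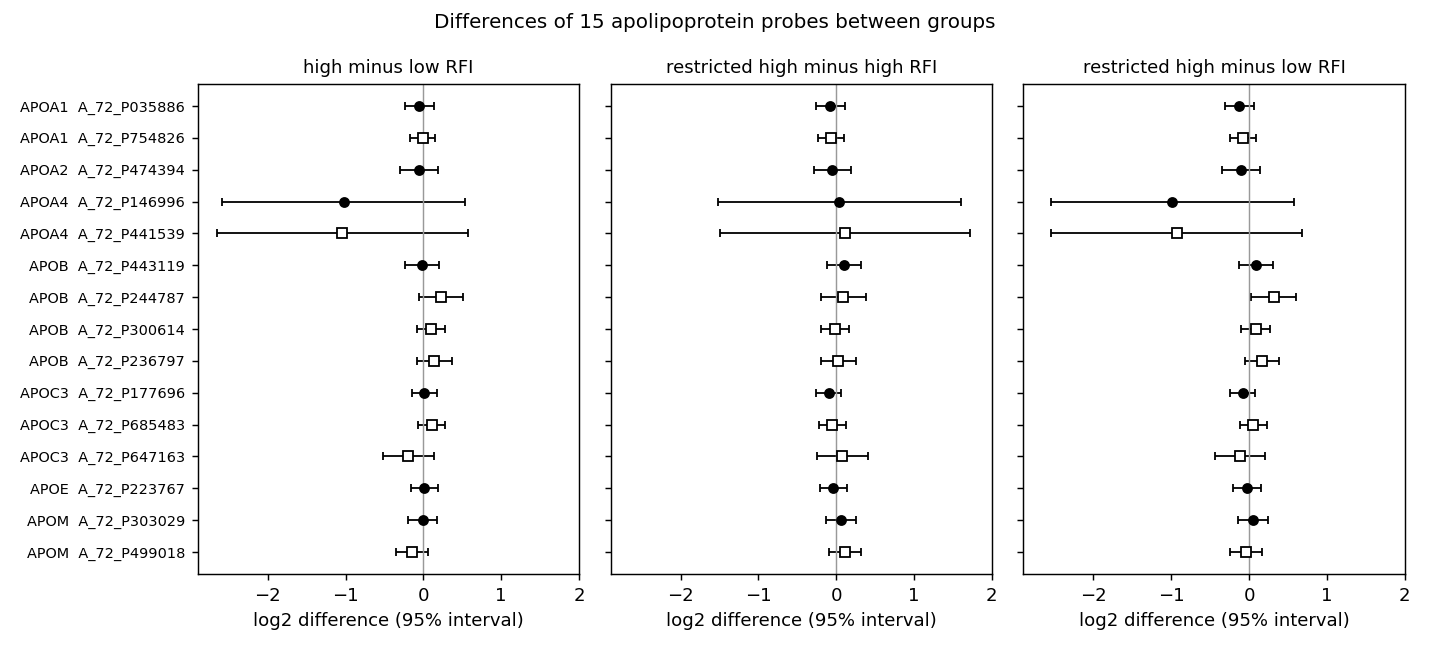
Log2 difference with its 95% interval for the 15 tested apolipoprotein probes, in high minus low, restricted high minus high and restricted high minus low RFI pigs. Filled circles mark the brightest probe of a gene and open squares its other probes. The APOA4 intervals are the widest, and the interval of APOB probe A_72_P244787 in the right panel, from 0.03 to 0.60, is the only one that leaves out 0.

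APOA4 differed from the rest in its spread. On probe A_72_P146996 the restricted high RFI pigs 1 to 8 read 1.05, 5.22, 3.16, 3.93, 1.88, 3.64, 5.09 and 6.36. High RFI pigs 1 to 8 read 4.09, 4.35, 4.42, 3.47, 3.37, 3.12, 4.31 and 2.90. Low RFI pigs 1 to 8 read 2.30, 2.54, 4.50, 6.63, 5.50, 2.83, 6.13 and 7.81. Every high RFI pig thus lay inside the range of both other groups. Restricted high RFI pigs 2, 7 and 8 and low RFI pigs 3, 4, 5, 7 and 8 lay above all high RFI pigs. Restricted high RFI pigs 1 and 5 and low RFI pigs 1, 2 and 6 lay below all of them.

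The second APOA4 probe, A_72_P441539, followed it closely, with r = 0.999 between the probes over the 24 pigs after removal of group means. It ran between -1.60 and 3.83 in restricted high, between 0.19 and 1.61 in high and between -0.57 and 5.23 in low RFI pigs. Both probes were well above background on all 24 arrays. The processed signal of A_72_P146996 ran between 949 and 83780 arbitrary units.

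**Figure D3:**
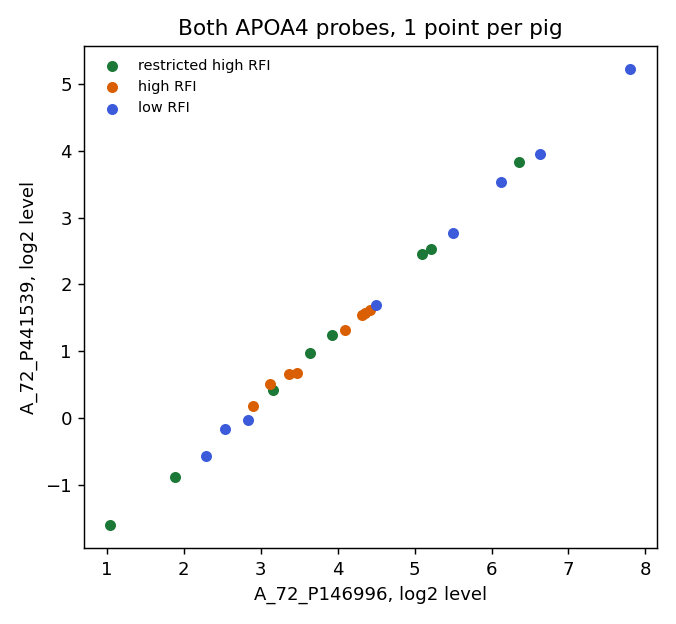
Level of the 2 APOA4 probes, both as log2 levels, with 1 point per pig. The points follow a line (r = 0.999 with group means removed), and high RFI pigs fill only its middle, between 2.90 and 4.42 on the horizontal axis.

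The APOA4 means were 3.79 ± 1.77 in restricted high, 3.75 ± 0.61 in high and 4.78 ± 2.07 in low RFI pigs on A_72_P146996 (SD, n = 8 each). High RFI pigs were 1.02 ± 0.76 (SE) below low RFI pigs on the log2 scale, with a difference of -1.02, a 95% interval of -2.59 to 0.54 and a limma adjusted p of 0.719. The difference of restricted high minus high RFI pigs was 0.04, with an interval of -1.52 to 1.60. That of restricted high minus low RFI pigs was -0.99, with an interval of -2.55 to 0.57 and a limma adjusted p of 0.633. These intervals still hold differences of several fold, so a change of that size would not have been detectable with 8 pigs each. Within scan day 1 the 3 differences were -1.06, 0.46 and -0.60, and within scan day 2 they were -0.93, -0.55 and -1.48.

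The pooled SD within groups was 1.61 on A_72_P146996 and 1.66 on A_72_P441539, at percentiles 99.7 and 99.8 of the 29665 probes tested, whose median SD was 0.27. The other 13 member probes had pooled SDs between 0.14 and 0.33, at percentiles 6.9 to 63.0. The spread of APOA4 was then set between groups with an exact two-sided permutation test of the absolute deviations from the group median, over all 12870 arrangements of 16 pigs and with adjustment over 6 tests. This test was chosen after the values had been seen. The medians come from the same pigs, so its p-values are approximate although all arrangements were counted. On A_72_P146996 the mean absolute deviation was 0.54 in high and 1.74 in low RFI pigs (exact p = 0.0042, adjusted p = 0.013). On A_72_P441539 it was 0.50 in high and 1.82 in low RFI pigs (exact p = 0.0031, adjusted p = 0.013). The SD of high RFI pigs was 0.294 and 0.261 times that of low RFI pigs on these probes. Among all probes tested, 0.802% had an SD ratio as small as that of A_72_P146996.

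The mean absolute deviation of restricted high RFI pigs on A_72_P146996 was 1.36, against 0.54 in high RFI pigs (exact p = 0.042, adjusted p = 0.062). Their SD was 2.91 times that of high RFI pigs, and 1.99% of all probes had a ratio as large. Against low RFI pigs, whose mean absolute deviation was 1.74, exact p was 0.443 and the SD ratio 0.856. For high against low RFI pigs on A_72_P146996, leaving out low RFI pig 1, 2 or 6 gave exact p = 0.025, 0.024 and 0.024. The adjusted exact p was 0.059 in each case. The adjustment took that value from another of the 6 tests, restricted high against high RFI pigs on A_72_P441539. Leaving out restricted high pig 4 or 6 moved the adjusted exact p of restricted high against high RFI pigs to 0.027 and 0.023. Leaving out restricted high pig 1, 2, 5, 7 or 8 gave 0.126, 0.106, 0.119, 0.099 and 0.121, and leaving out any 1 high RFI pig gave 0.064 to 0.103. Within scan day 1 the mean absolute deviation of high RFI pigs was 0.94 below that of low RFI pigs, and within scan day 2 it was 1.38 below (difference -0.94 and -1.38), with adjusted exact p = 0.557 and 0.214 on these smaller sets.

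How the members varied together was asked over the 24 pigs after removal of group means, with permutation within groups and adjustment over all 21 pairs of the 7 genes. By Pearson's r, 0 of 21 pairs passed an adjusted p of 0.05 and 5 had an unadjusted permutation p below it. The highest were APOA4 with APOE (r = 0.55, permutation p = 0.0093, adjusted p = 0.098; rho = 0.53, adjusted p = 0.106) and APOA4 with APOC3 (r = 0.53, permutation p = 0.0026, adjusted p = 0.054; rho = 0.59, adjusted p = 0.024). By Spearman's rho APOA4 with APOC3 was the only pair to pass. Without the 2 pigs farthest from the APOA4 median its r was 0.53, within scan day 1 it was 0.78 and within scan day 2 it was 0.40. With normexp in place of the scanner's own background correction, r was 0.27 for APOA4 with APOC3 and 0.33 for APOA4 with APOE.

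APOA1 correlated with APOB at r = 0.48 (adjusted permutation p = 0.174) and with APOC3 at r = 0.46 (adjusted permutation p = 0.174), its neighbour on the chromosome. APOM ran against APOA4 at r = -0.42 (adjusted permutation p = 0.210). Among the 6 genes other than APOA4, r lay between -0.28 and 0.48 with a median of 0.13. That value depends on the background correction: with normexp in place of the scanner's own correction the median was 0.60, and 12 of the 21 pairs passed by Pearson's r.

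**Figure D4:**
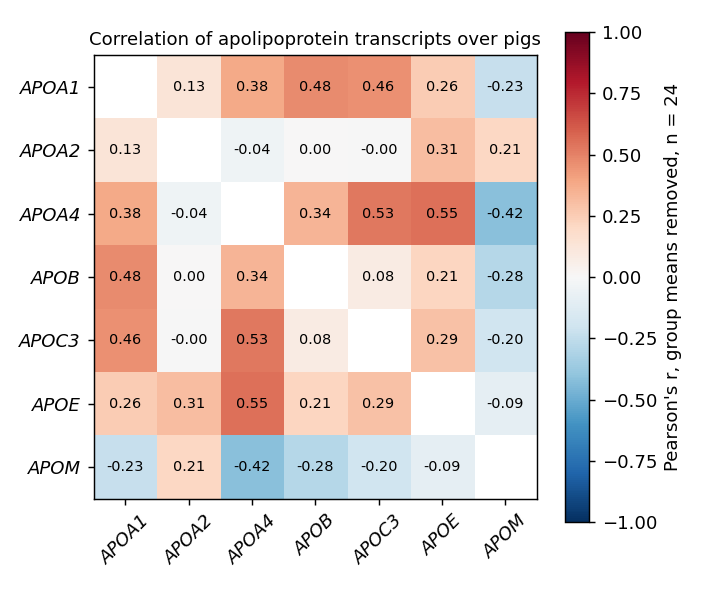
Pearson's r between the brightest probes of the 7 apolipoprotein genes over 24 pigs, with group means removed. The highest values, 0.53 and 0.55, join APOA4 to APOC3 and APOE, and the lowest, -0.42, joins APOA4 to APOM.

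APOA4, the most variable member, was also set against the 57 tested genes of the lipoprotein pathway lists, in relations chosen after its values had been seen. Of these, 2 passed by both measures. APOA5, whose product promotes the lipolysis of VLDL triglyceride and whose gene lies next to APOA4, rose with it at r = 0.79 (permutation p = 0.00019, adjusted p = 0.0054; rho = 0.75, adjusted p = 0.016). Its r was 0.70 without the 2 pigs farthest from the median, and 0.78 and 0.82 on the 2 scan days. NR2F2, the orphan nuclear receptor COUP-TFII, ran against APOA4 at r = -0.73 (permutation p = 7e-05, adjusted p = 0.0040; rho = -0.81, adjusted p = 0.0023). It gave -0.70 without those pigs and -0.85 and -0.72 on the 2 scan days. Neither relation was recomputed with normexp, which lowered the r of APOA4 with APOC3 and with APOE. The part of cell composition in either relation was not tested.

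The other relations did not pass, among them LCAT, the cholesterol-esterifying enzyme of HDL (r = 0.61, adjusted permutation p = 0.090), and CIDEB, a lipid droplet protein used in VLDL lipidation (r = 0.60, adjusted permutation p = 0.065). MTTP, which loads lipid onto apoB, stood at r = 0.33 and HNF4A, a main activator of apolipoprotein genes in hepatocytes, at 0.02. As group means, APOA5 stood at 6.47 ± 0.52 in restricted high, 6.26 ± 0.27 in high and 6.23 ± 0.61 in low RFI pigs. Its SD was smallest in high RFI pigs. APOA5 was named because it followed APOA4, so this is not a separate case of the APOA4 pattern, and it was not tested. NR2F2 stood at 1.21 ± 0.25 in restricted high, 1.22 ± 0.27 in high and 1.47 ± 0.29 in low RFI pigs.

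**Figure D5:**
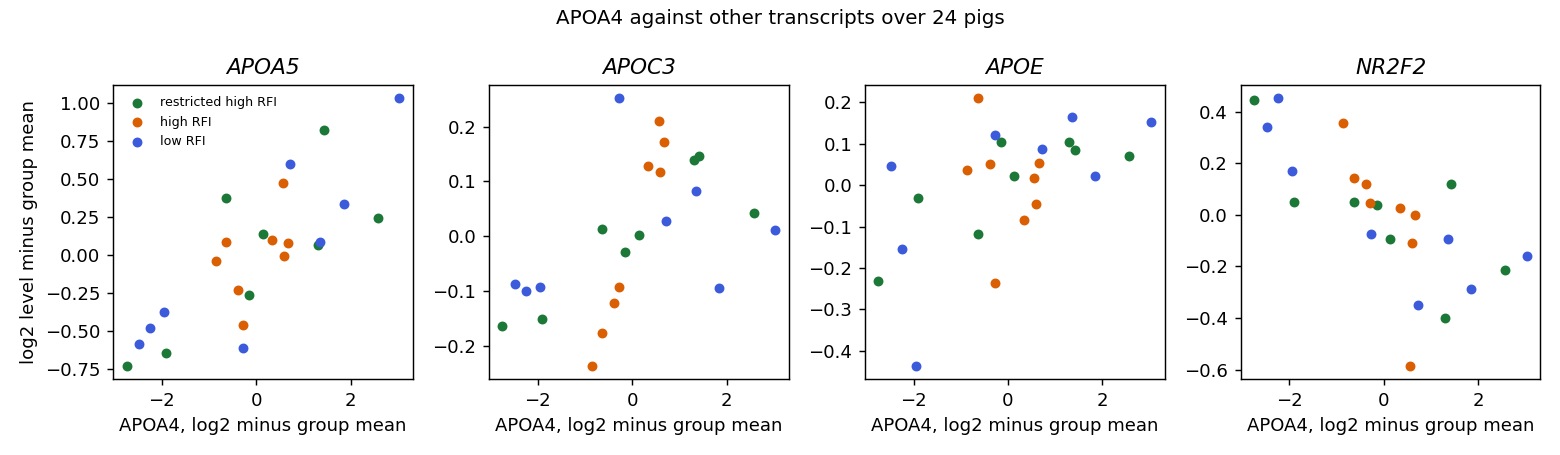
APOA4 (horizontal) against APOA5, APOC3, APOE and NR2F2 (vertical), each as log2 level minus its group mean, with 1 point per pig of the restricted high, high and low RFI groups. APOA5 rises with APOA4 (r = 0.79) and NR2F2 declines (r = -0.73). The high RFI points stay within 1 log2 unit of 0 on the horizontal axis.

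APOA4 was also set against 10 marker lists and the share of spots above background over the 24 pigs, with group means removed, as a description without a test. It correlated with the mean of 10 hepatocyte markers at r = 0.52, with that of 8 endothelial markers at -0.45, with the red cell marker at 0.38, with the bile duct markers at -0.36 and with the share of spots above background at -0.16. The red cell value rests on 1 dim gene. Its level ran between -5.34 and -3.35 in restricted high, -5.45 and -2.73 in high and -5.99 and -2.23 in low RFI pigs. APOA1 stood at 0.45 with the hepatocyte and -0.37 with the endothelial markers, and APOE at 0.21 and -0.47. The genes were not alike on every list: with the lymphocyte markers APOA4 stood at 0.02, APOA1 at -0.43 and APOE at 0.11. The hepatocyte mean itself ran only between 8.41 and 8.60 in restricted high, 8.35 and 8.55 in high and 8.38 and 8.52 in low RFI pigs. The endothelial mean ran between 0.51 and 1.33 in restricted high, 0.35 and 1.23 in high and 0.33 and 1.33 in low RFI pigs. The part of these marker shifts in the APOA4 values was not tested. Of the small intestine markers, FABP2, the intestinal fatty acid binding protein, was above background on 1 restricted high, 0 high and 0 low RFI arrays. ANPEP, which liver also expresses, and FABP6 were the only other such genes measured, and their mean correlated with APOA4 at -0.13.

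Among 4474 other named genes, up to 3 of those with the pattern most like each member over the 24 pigs, by r of group-centred values, are given. APOA4 was followed most closely by SARAF, a regulator of calcium entry (0.81), XBP1, a transcription factor of the unfolded protein response (0.81), and CYB5A, the microsomal cytochrome b5 (0.80), and 39 genes exceeded r = 0.6. APOB was followed by KIF21A, a kinesin (0.82), RPL7, a ribosomal protein (0.82), and UBB, a polyubiquitin gene (0.81), and 199 genes exceeded 0.6. APOE was followed by CEND1, a regulator of cell cycle exit in neurons (0.80), ABCB4, the phospholipid exporter of bile (0.64), and ATP8, a mitochondrially encoded ATP synthase subunit (0.63).

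Among the genes most like APOA1 were SLC16A12, a monocarboxylate transporter family member (0.73), and SNCG, gamma-synuclein (0.67). APOA2 was closest to VANGL1, a planar polarity protein (0.76), MET, the hepatocyte growth factor receptor (0.73), and RFC5, a subunit of the DNA clamp loader (0.68). APOC3 was closest to SMARCC2, a chromatin remodelling subunit (0.73), ATXN2, an RNA-binding protein (0.69), and CNPY3, a chaperone of Toll-like receptors (0.69). APOM was closest to NQO1, a quinone reductase (0.66), MBOAT1, a lysophospholipid acyltransferase (0.63), and ACSL4, an acyl-CoA synthetase (0.63), and only 3 genes exceeded 0.6. These are the highest of many values and are given as a description.

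The other genes of lipoprotein metabolism showed no difference past the threshold either. Of 5 further apolipoprotein genes, 12 genes of apoB particle assembly, 10 of HDL formation, 6 of lipoprotein receptors, 3 of lipolysis in blood and 21 transcription factors of apolipoprotein genes, 0 passed an adjusted p of 0.05 in limma in any comparison; at an unadjusted p of 0.05 these lists held 0, 0, 2, 0, 0 and 1 genes in high minus low, 0, 1, 0, 0, 0 and 2 in restricted high minus high, and 0, 2, 1, 0, 0 and 2 in restricted high minus low RFI pigs. Of all probes tested, 9.52%, 5.33% and 12.7% lay below it in those comparisons. Their median differences lay between -0.13 and 0.17.

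In the assembly list, HSPA5, the chaperone BiP, was 0.54 ± 0.15 (SE) and DGAT2, which makes triglyceride, -0.65 ± 0.18 in restricted high minus low RFI pigs, with limma adjusted p of 0.127 and 0.128. SAR1A, a GTPase of the vesicles that leave the endoplasmic reticulum, was 0.23 ± 0.07 in restricted high minus high RFI pigs (limma adjusted p = 0.760). In the HDL list, LIPC, hepatic lipase, was -0.27 ± 0.11 and LCAT -0.25 ± 0.11 in high minus low RFI pigs (limma adjusted p = 0.417 and 0.482). Among the transcription factors, NR0B2, the bile acid-induced repressor SHP, was -1.31 ± 0.44 in high minus low RFI pigs (limma adjusted p = 0.298) and 0.97 ± 0.44 in restricted high minus high RFI pigs (limma adjusted p = 0.926), comparisons that share the high RFI arrays. CEBPA, a hepatocyte transcription factor, was -0.93 ± 0.38 and CEBPB, its stress-induced relative, 0.62 ± 0.28 in restricted high minus low RFI pigs (limma adjusted p = 0.303 and 0.355).

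In the receptor list, all 6 genes measured had negative differences in high minus low and in restricted high minus low RFI pigs, with medians of -0.11 and -0.12 against 0.003 and -0.005 over all probes. These comparisons share the low RFI arrays, 50.9% and 48.7% of all probes had positive differences in them, and 0 of the 6 genes lay below an unadjusted p of 0.05 in limma. MYLIP, a ubiquitin ligase that limits lipoprotein uptake, was -0.19 ± 0.14 in high minus low RFI pigs (limma adjusted p = 0.717), and VLDLR, a receptor for triglyceride-rich particles, -0.23 ± 0.14 in restricted high minus low RFI pigs (limma adjusted p = 0.521). Among the further apolipoprotein genes, APOF, a lipid transfer inhibitor, was -0.38 ± 0.19 in high minus low RFI pigs (limma adjusted p = 0.565), and SAA3, an acute phase apolipoprotein, 0.79 ± 0.47 in restricted high minus low RFI pigs (limma adjusted p = 0.516).

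Markers of cells other than hepatocytes were also measured. Macrophage genes, 7 in number, had median differences of 0.16, 0.03 and 0.13 in the 3 comparisons, and the brightest were CD5L, CD14 and CD163. CD163, at 0.48 ± 0.16 (SE) in restricted high minus low RFI pigs (limma adjusted p = 0.202), was the only one below an unadjusted p of 0.05 there. The 8 stellate cell and fibroblast genes, led in signal by ACTA2, DES and SPARC, had median differences of -0.23, -0.14 and -0.43 in the 3 comparisons. In limma, 4 of the 8 lay below an unadjusted p of 0.05 in restricted high minus low RFI pigs, as did 12.7% of all probes, and 0 passed the adjusted threshold. The 8 endothelial genes, led by PECAM1, ENG and CDH5, had medians of -0.16, -0.02 and -0.14. The bile duct, lymphocyte, adipocyte, small intestine, pancreatic acinar and red cell lists had 4, 9, 5, 2, 3 and 1 genes tested. They also held 0 genes past the adjusted threshold in limma. At an unadjusted p of 0.05, limma gave 1 small intestine and 1 pancreatic acinar gene in high minus low RFI pigs. It gave 1 of each list in restricted high minus low RFI pigs too. Of all probes, 9.52% and 12.7% lay below it there. The part of these shifts in the apolipoprotein levels was not tested.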

How the data were processed

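Liver RNA (150 ng per pig) was amplified and labelled with Cy3, per the labels' protocols, and read on 1-colour Agilent arrays with Feature Extraction 10.7.3.1, per the file headers. R 2.10.0 is listed in the submitters' processing notes. The deposited intensity values used are the scanner's background-subtracted processed signal; mean and background intensity served an alternative. The log2 table that the authors deposited, with 27564 rows, equalled log2 processed signal minus the median of those rows on the same array (r = 1).

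After removal of 1417 control spots, log2 processed signal was centred on the 75th percentile of its array, and spots of a probe were averaged. Probes well above background on at least 6 of 8 arrays of a group were kept. Groups were compared with limma 3.58.1 (R 4.3.3; lmFit, eBayes), all 24 arrays in 1 fit, with Benjamini-Hochberg adjustment over 29665 probes. Intervals are 95%. The script was tested on simulated data. Correlations used Python 3.11.15, numpy 2.4.6 and 100000 permutations within groups. The brightest probe stands for a gene. Genes named from pathway lists are among the 3 with the smallest p in a comparison, those from marker lists are the 3 brightest, and up to 3 of the genes most like each member are given. Some items these rules select are not reported here. FABP2 and the genes set against APOA4 were named after their values were seen. Symbols came from pig name tables and RefSeq Sscrofa11.1, used for names and neighbours; 12290 probes had a single symbol, 38 several and 31275 none. Members and lists were chosen with earlier results of these data known. The labels give 8 pigs per condition, so p-values measure the spread between pigs. For same-numbered pigs of different groups, r of their deviations from the group means was -0.18 to 0.42, with a median of 0.02. It was over 0.1 in 8 of 24 pairs. Differently numbered pigs were not compared, so these values cannot exclude a pairing. The labels name none, and numbers were taken as names only.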

Additional observations from a re-analysis of the deposited data

Results flagged for a closer look

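In 4 of 54 groups of 8 pigs, 1 pig stood further from its nearest neighbour than Dixon's limit allows. Chance gives about 1 in 20 groups. APOA2 probe A_72_P474394 read 7.31 in restricted high RFI pig 8, against 7.84 for the nearest pig of that group. APOB probe A_72_P076311 read -3.47 in low RFI pig 7, and the nearest pig read -6.32. APOB probe A_72_P192632 read -5.95 in high RFI pig 8, with the nearest at -7.27, and -5.62 in restricted high RFI pig 4, with the nearest at -7.02. These 2 APOB probes were near background, and the first was well above it on 1 low RFI array. Without restricted high pig 8 the APOA2 difference of restricted high minus high RFI pigs was 0.04 in place of -0.05. No APOA4 pig stood apart by this measure.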

How the results depend on the processing

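In none of 155 recomputed counts did an apolipoprotein probe pass the threshold, and none of 840 recomputed gene differences did. Of these, 782 kept their sign and 58 changed it. With the replicate block the APOA4 difference in high minus low RFI pigs was -1.02 and the counts of all probes were 50, 0 and 93, against 48, 0 and 66 (in the order high minus low, restricted high minus high, restricted high minus low RFI, as below). The block changed no call of a member.

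Signs changed as follows. With normexp, APOA1, APOA2, APOB and APOM were 0.056, 0.016, 0.084 and 0.021 in high minus low, APOE was 0.020 in restricted high minus high, and APOA1, APOC3 and APOE were 0.044, 0.050 and 0.10 in restricted high minus low RFI pigs. With quantile normalization APOM was 0.00099 in the first and APOA4 -0.015 in the second comparison. With median centring APOC3 was -0.0015 and APOE -0.0052 in the first. With array weights APOB was 0.023 in the first and APOA4 -0.14 in the second. APOA4 was -0.071 in the second with slide as a block and -0.23 without slide 3. Scan day 1 alone gave APOC3 -0.064 and APOE -0.096 in the first and APOA1 0.011 in the second. Scan day 2 alone gave APOA2 0.058 and APOB 0.029 in the first, APOA2 0.047 and APOA4 -0.55 in the second, and APOA2 0.105 and APOE 0.016 in the third. The mean over a gene's probes gave APOB 0.113 and APOC3 -0.025 in the first. With each pig left out in turn, the first comparison ran from -0.057 to 0.029 for APOB, -0.018 to 0.048 for APOC3, -0.054 to 0.042 for APOE and -0.056 to 0.035 for APOM. The second ran from -0.080 to 0.043 for APOA2 and -0.33 to 0.43 for APOA4, and the third from -0.089 to 0.0061 for APOE and -0.0047 to 0.098 for APOM. The cause was not tested.

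Counts of all probes past the threshold in high minus low RFI pigs were 5 with normexp, 28 without the filter, 92 with array weights, 4 and 8 on scan days 1 and 2, 28 without slide 3, and 27 to 57 with a pig left out (28, 27 and 30 without high RFI pigs 2, 3 and 6). In restricted high minus high RFI pigs they were 2 with array weights, 1 on scan day 2 and 0 to 1 with a pig left out (1 without low RFI pig 5). In restricted high minus low RFI pigs they were 13 with normexp, 33 and 7 on the scan days, 27 with only those groups, 24 without slide 3 and 30 to 143 with a pig left out (143, 40, 121 and 33 without restricted high pigs 1, 2, 5 and 7, and 30 without low RFI pig 8). Pairs of members past the threshold by Pearson's r numbered 12 with normexp, 2 on scan day 1 and 2 without the 2 farthest pigs.

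The mean absolute deviation of APOA4 in high minus low RFI pigs (-1.20) was -0.94 and -1.38 on the scan days and -1.30 to -0.97 with a pig left out. In restricted high minus high RFI pigs (0.82) it was 1.04 without slide 3, where adjusted exact p = 0.0498, and 0.60 to 0.97 with a pig left out. In restricted high minus low RFI pigs it was 0.10 on scan day 1 alone. The slide 3 alternative and these repeats were chosen after seeing the data. Leaving out saturated spots gave no other value, since none was saturated. With 8 pigs a group, APOA4 could differ several fold between groups without a call.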
